A study of Mus musculus with 8 samples.

Results

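MicroRNAs of the miR-101 and miR-153 families that have been linked to App, the gene of the amyloid precursor protein, were described in the Argonaute-bound small RNAs of mouse brain. The 4 members were the miRNA names mmu-miR-101a-3p, mmu-miR-101b-3p, mmu-miR-101a-5p and mmu-miR-153-3p (written without mmu- from here on). Members were chosen by name, with earlier results of these data known. They were 4 of 895 miRNA names in the read table and were made up of 456 of its 47204 read sequences: 207 of miR-101a-3p, 91 of miR-101b-3p, 21 of miR-101a-5p and 137 of miR-153-3p. Small RNAs bound to Ago1-4 were pulled down with a GW182 peptide from cortex and hippocampus of single female mice, size-selected on a gel between 19 and 35 nt, and sequenced. Each level is in CPM, reads per 1000000 small RNA reads of a library, summed over all reads with a given name. The genotypes compared were 5XFADtg Rubicon+/- (het, n = 4) and 5XFADtg Rubicon-/- (ko, n = 4), on a mixed C57BL/6J and SJL background. The mice were aged 6 months, or either 6 or 8 months where the methods and not the results are followed, and the labels give no age for single libraries. Both genotypes carried the 5XFAD transgene, which drives mutant human APP from a neuron-directed Thy1 promoter, so no library without the transgene entered these comparisons. Rubicon takes part in LC3-associated phagocytosis and endocytosis. The comparison asked whether the small RNAs held by Argonaute differ in transgenic mice that lack it. The libraries came from whole tissue pieces, in which fewer cells of a type and less RNA per cell cannot be told apart.

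A miRNA guides an Argonaute protein to messenger RNAs mainly through its seed, the bases from position 2 to position 7 or 8 counted from the 5′ end. A shift of the 5′ end by a single base therefore gives the guide another seed, while an added base at the 3′ end leaves the seed as it was. The 3p arms of the miR-101 hairpins and of the miR-153 hairpin have been reported to repress App through its 3′ UTR, and the 5p arm of miR-101a is the strand opposite the miR-101a-3p guide. The enzyme Dicer makes the 5′ end of a 3p arm, and terminal transferases can add bases that are not in the genome to the 3′ end.

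The mature sequences below are the RefSeq reference forms for GRCm38.p6, and are shown because the reads departed from them at their 5′ ends. Capitals mark the seed, bases 2 to 8.
miR-101a-3p: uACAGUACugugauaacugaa
miR-101b-3p: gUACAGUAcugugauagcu
miR-101a-5p: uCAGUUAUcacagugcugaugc
miR-153-3p: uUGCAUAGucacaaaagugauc

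The hairpin of miR-101a lies at chr4:101346945-101347027 on the minus strand, in an exon of the long noncoding RNA E130102H24Rik. The hairpin of miR-101b lies at chr19:29135279-29135375 on the plus strand, in an intron of Rcl1. The hairpin of miR-153 lies at chr12:117250817-117250885 on the plus strand, in an intron of Ptprn2 and, on the opposite strand, of Gm5441. The reference form of miR-101a-3p began with U and that of miR-101b-3p with G, 1 base further upstream. Once aligned, the reference forms of the paralogs differed in the shared stretch by A16G, with miR-101a-3p first and positions counted from the U. All reads named miR-101a-3p held the A and all reads named miR-101b-3p the G, so the paralogs could be told apart in every read counted. The RefSeq form of a further paralog, miR-101c, is 19 bases long and lies whole inside miR-101a-3p from its base 2 on. No read carried that name, and a read of that sequence could not be told apart from a shortened miR-101a-3p.

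Depth ranged from 509839 to 19878057 reads per library, a range of 39.0-fold, and the 2 libraries above 5000000 reads, ko 1 and ko 2, were of the same genotype. A limit of 3 reads stood for 0.151 CPM in the deepest and 5.79 CPM in the shallowest library, het 1. The neuronal miRNAs miR-124-3p, miR-128-3p and miR-9-5p averaged 52509, 68599 and 57047 CPM, the liver miRNA miR-122-5p 15.1 CPM and the muscle miRNAs miR-206-3p, miR-1a-3p and miR-133a-3p 16.6, 125 and 102 CPM. Of 18 marker miRNAs for neurons, glia, blood, vessels and other tissues, 17 were tested, and miR-200a-3p and miR-200b-3p, which mark epithelia, were called lower in ko. Both had no value in ko libraries above the lowest het value. The call of miR-200a-3p held in every alternative, whereas miR-200b-3p was not called by edgeR, without any 1 of het 1, het 4, ko 1 and ko 2, or without both deep libraries (adjusted p = 0.031 in all libraries by limma, at most 0.217). The other listed epithelial markers, miR-203-3p and miR-205-5p, had 80.3 and 9.83 CPM in het and 70.4 and 8.09 CPM in ko. miR-203-3p was not called (log2 difference -0.16, limma, adjusted p = 0.975), and miR-205-5p was too low to be tested. Whether tissue composition took part in the values of the members was not tested.

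Both miR-101 paralogs were among the well-loaded guides and came with either of the 5′ ends. Over the 8 libraries, 57.9% ± 6.23 (SD, n = 8) of the CPM of miR-101a-3p began at the U and 41.2% ± 6.13 at the G 1 base upstream. In miR-101b-3p the same pair of starts held 66.0% ± 5.63 and 33.8% ± 5.60. The main start of miR-101b-3p was therefore not its reference start. miR-153-3p by contrast had 97.0% ± 0.499 of its CPM at the reference start. miR-101a-5p had 77.4% ± 7.37 there and 22.6% ± 7.37 at the next base.

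The reads that carried these starts are shown, since they differ in seed or in 3′ end. The first of them, with the G start, was the most abundant single read of miR-101a-3p.
miR-101a-3p, G start, 21 nt: gUACAGUAcugugauaacuga
miR-101a-3p, U start, 20 nt: uACAGUACugugauaacuga
miR-101a-3p, U start with an added U, 22 nt: uACAGUACugugauaacugaau
miR-101b-3p, U start, 22 nt: uACAGUACugugauagcugaag
miR-101b-3p, G start, 21 nt: gUACAGUAcugugauagcuga
miR-153-3p, 24 nt: uUGCAUAGucacaaaagugaucau
The miR-101a-3p read with the G start had 2315 ± 143 CPM in het and 2841 ± 942 CPM in ko (SD, n = 4 each). The U start of 20 nt had 2163 ± 618 and 1850 ± 1164 CPM, and the same start with an added U had 1346 ± 512 and 1542 ± 631 CPM. For miR-101b-3p, the U start of 22 nt had 802 ± 194 CPM in het beside 578 ± 194 CPM in ko, and the G start of 21 nt had 405 ± 79.9 and 509 ± 142 CPM. The miR-153-3p read of 24 nt, the longest of its 4 most abundant, had 1201 ± 334 and 678 ± 402 CPM, and the most abundant of them, of 22 nt and with the reference sequence, had 1615 ± 548 and 1116 ± 336 CPM. For all these reads the genotypes overlapped. They did not for the most abundant read of miR-101a-5p, of 22 nt and with the reference sequence. It had 57.2 ± 9.04 CPM in het and 29.3 ± 10.2 CPM in ko, with 45.4 CPM in het 2 and 44.2 CPM in ko 2. Its log2 difference was -0.98 (limma, unadjusted p = 0.0142, adjusted p = 0.683), so it was not called.

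**Figure D1:**
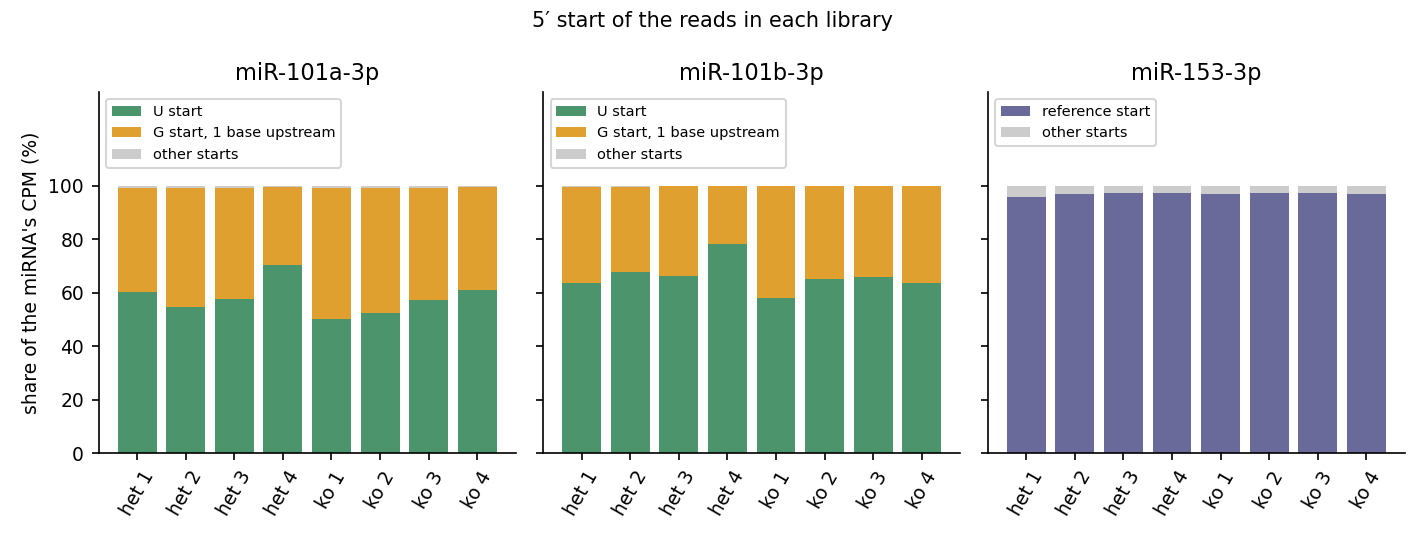
Share of the CPM of miR-101a-3p, miR-101b-3p and miR-153-3p (y axis, percent) by the first base of the read, in each of the 8 libraries (x axis). The U start held more than the G start in every library for both miR-101 paralogs, from 50.3% to 70.4% in miR-101a-3p and from 58.0% to 78.0% in miR-101b-3p, while the reference start of miR-153-3p held 95.9% to 97.4%.

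The share of the U start in miR-101a-3p was 60.3%, 54.6%, 57.5% and 70.4% in het 1 to 4, and 50.3%, 52.2%, 57.3% and 60.9% in ko 1 to 4. In miR-101b-3p it was 63.7%, 67.6%, 66.3% and 78.0% in het, and 58.0%, 65.2%, 65.7% and 63.7% in ko. The highest value of both came from het 4 and the lowest from ko 1, and the remaining libraries of the genotypes were intermixed. The fewest reads behind such a share were 1282, for miR-101b-3p in het 1, with a 95% Wilson interval 5.24 points wide, and in miR-101a-3p the widest interval was 2.56 points. These intervals cover counting error only. The U start exceeded the G start in 8 of 8 libraries for both paralogs, with a mean log2 difference of CPM (G minus U) of -0.50 ± 0.38 (SD) in miR-101a-3p and -0.98 ± 0.39 in miR-101b-3p (exact two-sided sign-flip permutation test, p = 0.00781, the smallest that 8 libraries allow, adjusted p = 0.0156 over 6 tests of the starts).

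Few abundant miRNAs had a second seed at this share. Of 278 miRNAs that averaged 100 CPM or more, the median had 3.06% of its CPM in reads with another seed than its most abundant one. miR-101a-3p had 41.2% and stood at place 16, miR-101b-3p had 33.5% at place 27, miR-101a-5p 22.3% at place 41 and miR-153-3p 3.30% at place 133. In 19 of the 278 the share was at least 40%.

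Each start was a substantial carrier of its seed. Reads with the U start have the 6mer seed ACAGUA (bases 2 to 7), which summed to 8353 CPM over all small RNAs. The members gave 94.0% of it on average, and the next carrier was the red-cell miRNA miR-144-3p with 4.87%. The members' share was lowest, at 83.9%, in the library richest in miR-144-3p. Reads with the G start have the seed UACAGU, which summed to 5606 CPM, of which the members gave 90.7% and miR-582-5p 5.55%. The seed of miR-153-3p, UGCAUA, summed to 5054 CPM, with 96.5% from miR-153-3p and 0.802% from miR-448-3p. For the seed of miR-101a-5p, CAGUUA, the sum was 115 CPM, of which the member gave 71.8% and miR-935 28.1%. The share of the member in CAGUUA ran from 41.0% to 86.6% over the libraries.

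The read table gives each 6mer seed a viability score, the mean percent viability of 3 mouse cell lines after transfection of that seed in an earlier screen, not measured in these mice. The U start of miR-101 had a score of 86.2 and the G start 61.1, so the first base of the read moved the same miRNA between a seed of high and one of lower viability. miR-153-3p had 94.7 and miR-101a-5p 75.8. Weighted by CPM over all reads, the mean score was 75.6 ± 1.56 (SD, n = 8) for miR-101a-3p, 77.7 ± 1.41 for miR-101b-3p and 94.0 ± 0.122 for miR-153-3p.

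The 3′ UTR of mouse App held matches to both miR-101 starts and to miR-153-3p. In the transcript App-201 (minus strand, UTR of 888 bases, GRCm38), the 8 bases GTACTGTA at chr16:84955069-84955076 hold the 7mer match of the U start (GTACTGT) and that of the G start (TACTGTA), which overlap in all but a base. The 7mer match of miR-153-3p, CTATGCA, lies at chr16:84954849-84954855. The matches are in capitals.
App 3′ UTR, miR-101 match: tgggttttgtGTACTGTAaaaaaa
App 3′ UTR, miR-153 match: ttcctgatcaCTATGCAttttga
The miR-101 match starts at UTR base 255 and the miR-153 match at base 476, and all 6 App transcripts with a 3′ UTR in the basic GENCODE annotation hold both. The 7mer of the G start has a further match at UTR base 545, where the U start has only a 6mer match. The motif that serves both starts was in 2.41% of 19079 mouse 3′ UTRs (1 transcript per gene) and in 1.91% of the 2360 with a length within 20% of that of App. The miR-153 motif was in 6.45% and 5.47%. For miR-101a-5p, neither the 7mer ATAACTG nor the 6mer TAACTG was in the App UTR. Only the sense strand of the UTRs was searched. A match is a run of letters, and neither App RNA nor protein was analysed here, nor the 3′ UTR of the human transgene.

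The 3′ ends of the miR-101 paralogs were often extended by bases that are not in the hairpin. Such reads made up 24.8% ± 2.56 (SD, n = 8) of the CPM of miR-101a-3p, 17.6% ± 2.54 of that of miR-101b-3p and 3.24% ± 0.470 of that of miR-153-3p. In miR-101a-3p the added part began with U in 15.3% ± 2.81 of the CPM, with A in 4.93% ± 0.835 and with C in 4.42% ± 0.950. In miR-101b-3p it began with U in 11.1% ± 2.31 and with A in 6.09% ± 1.33. In miR-153-3p A was the more frequent, with 2.44% ± 0.430.

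In miR-101a-3p the tails went with the 5′ start. Among its U-start reads 37.4% ± 5.70 had a tail, and among its G-start reads 7.35% ± 1.67. By library the U-start share was 35.4%, 34.2%, 32.1% and 34.6% in het 1 to 4 and 50.5%, 39.2%, 35.9% and 37.6% in ko 1 to 4. The G-start share was 7.69%, 6.96%, 6.71% and 11.2% in het and 6.41%, 7.28%, 6.94% and 5.60% in ko. No library overlapped, and the G start was lower in 8 of 8 by 30.1 points on average (SD 6.38, exact sign-flip permutation test p = 0.00781, adjusted p = 0.0156 over the 6 tests). In miR-101b-3p the U start had 19.3% ± 3.83 and the G start 14.9% ± 2.92, higher for the G start in 1 of 8 libraries, and the difference of -4.32 points (SD 4.59) did not pass adjustment (exact sign-flip permutation test p = 0.0391, adjusted p = 0.0586). It did pass without het 4, at -5.15 points (adjusted p = 0.0234), and with reads averaging 1 CPM or more (adjusted p = 0.0469, same exact permutation test). The mean length of U-start and G-start reads was 21.2 ± 0.128 and 21.2 ± 0.0733 nt in miR-101a-3p and 21.5 ± 0.156 and 21.4 ± 0.0665 nt in miR-101b-3p (SD, n = 8), with unadjusted p = 0.289 and 0.477 by the same exact test. The tail share of the U start of miR-101a-3p did not overlap between the genotypes, at 34.1% ± 1.42 in het and 40.8% ± 6.61 in ko (SD, n = 4). The exact permutation test gave its smallest possible p of 0.0286, and with adjustment over the 4 starts of both paralogs it did not pass (adjusted p = 0.114), which it could do only if at least 3 of the 4 reached that p. The difference of 6.71 points was 3.48 points without ko 1 and 2.64 points without both deep libraries. The other 3 starts overlapped between the genotypes, with adjusted p from 0.114 to 0.171 in the same exact test. The tests of the starts were added after the reads had been seen.

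**Figure D2:**
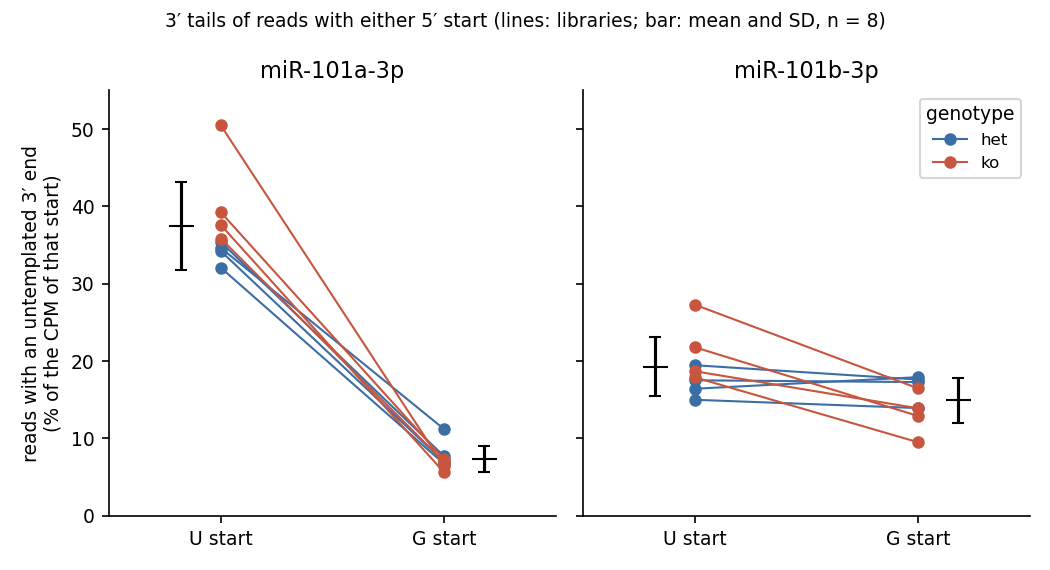
Share of reads with an untemplated 3′ end (y axis, percent of the CPM of that start) for the U and the G start of miR-101a-3p and miR-101b-3p, with 1 line per library and the mean and SD over 8 libraries beside them. In miR-101a-3p all U starts, from 32.1% to 50.5%, lie above all G starts, from 5.60% to 11.2%, whereas in miR-101b-3p the ranges overlap.

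miR-153-3p varied at the 3′ end in another way, by length along its own hairpin. Reads matching the hairpin made up 95.6% ± 0.577 of its CPM, and 20, 21, 22, 23 and 24 nt held 8.65%, 22.0%, 30.4%, 18.9% and 18.7%. The mean length was 22.2 ± 0.108 nt, against 21.2 ± 0.0860 nt in miR-101a-3p and 21.4 ± 0.101 nt in miR-101b-3p. Reads of 24 nt held 0.0997% and 0.138% of the CPM of the miR-101 paralogs.

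In level the members ranked 24, 45, 62 and 275 of 895 miRNAs. miR-101a-3p, the most abundant, had 10792, 9057, 9794 and 12988 CPM in het 1 to 4 and 7922, 10009, 8434 and 15318 CPM in ko 1 to 4. The highest library was ko 4 and the lowest ko 1, so that the 4 het values lay inside the ko range. miR-153-3p had 6867, 6244, 7147 and 4099 CPM in het and 3681, 5913, 2414 and 3984 CPM in ko. The values of ko 1, ko 3 and ko 4 were below the lowest het value, that of het 4, and that of ko 2 was not. miR-101b-3p had 2475, 2347, 2439 and 3002 CPM in het and 1998, 2541, 1890 and 3268 CPM in ko, with the same highest library as its paralog. miR-101a-5p, the opposite strand, had 102, 162, 140 and 124 CPM in het and 67.9, 116, 53.3 and 85.2 CPM in ko. Here also 3 of 4 ko values were below the lowest het value, and its reads were few, 53 in het 1. The groups overlapped for all 4 members, where 16 of the 463 tested miRNAs, those averaging 10 CPM or more, (3.46%) had groups that did not.

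In order of level, miR-101a-3p exceeded miR-153-3p in all 8 libraries, and miR-153-3p exceeded miR-101b-3p in all 8, with the smallest ratio in ko 4. Of the other strands, miR-153-5p averaged 155 CPM and miR-101b-5p 0.547 CPM, at or under the limit of 3 reads in most libraries. Reads assigned to the 3 hairpins but with no mature name added 143, 58.5 and 146 CPM for miR-101a, miR-101b and miR-153.

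**Figure D3:**
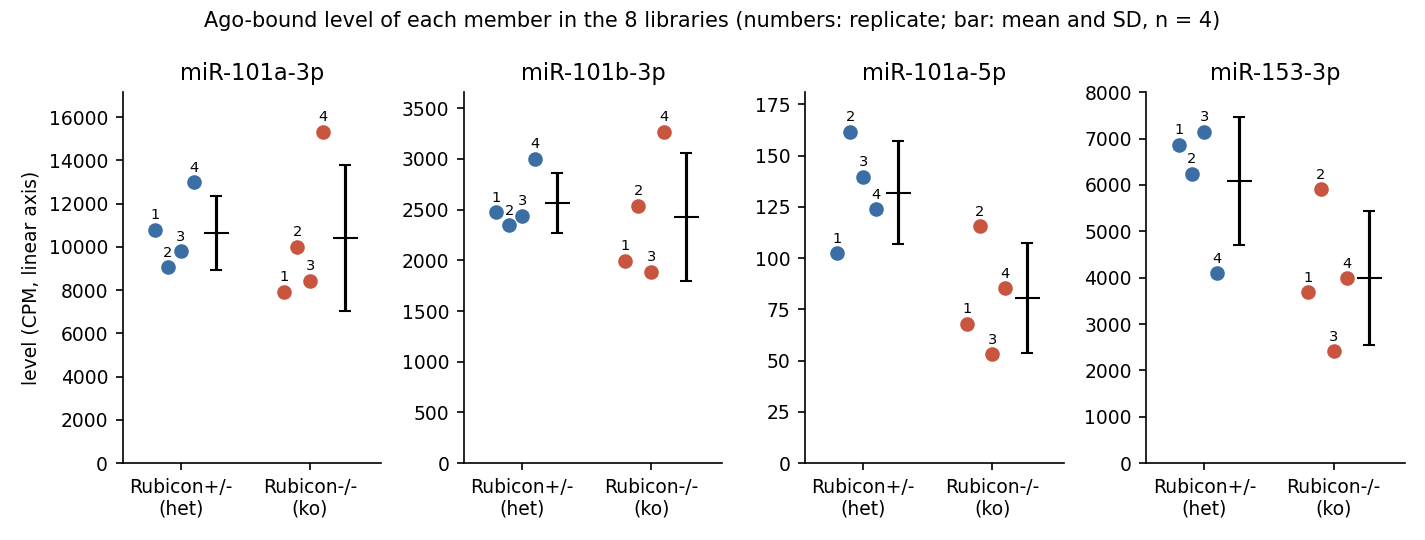
Level of each member (CPM, linear axis from 0) in the 4 het and 4 ko libraries, with the replicate number above each point and the mean and SD beside each group. The genotypes overlap in all 4 panels, and 3 of 4 ko libraries lie below every het library for miR-101a-5p and miR-153-3p.

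None of the 4 members was called between the genotypes. The test was limma on log2(CPM + 1) over 463 miRNAs with Benjamini-Hochberg adjustment, which called 6 (1.3%), each of them lower in the ko libraries. Before adjustment 34 miRNAs (7.34%) passed 0.05, among them 1 of the 4 members. edgeR and DESeq2 on the recovered reads also called 0 members. miR-101a-3p averaged 10658 ± 1708 CPM in het and 10421 ± 3383 CPM in ko (SD, n = 4 each), a log2 difference (ko over het) of -0.07 (SE 0.25, 95% interval -0.62 to 0.48, adjusted p = 0.975). miR-101b-3p averaged 2566 ± 296 and 2424 ± 631 CPM, with -0.11 (SE 0.25, interval -0.66 to 0.44, adjusted p = 0.975). For both paralogs the sign turned positive under median centring, which moved the median log2 difference of all miRNAs by 0.22, from -0.09 to 0.13, and relative to that median they stood at 0.02 and -0.02.

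miR-153-3p averaged 6089 ± 1379 CPM in het and 3998 ± 1446 CPM in ko, a log2 difference of -0.65 (SE 0.30, 95% interval -1.30 to 0.0034, unadjusted p = 0.0511, adjusted p = 0.613 by limma). miR-101a-5p averaged 132 ± 25.1 and 80.5 ± 26.8 CPM, with -0.74 (SE 0.32, interval -1.44 to -0.05, unadjusted p = 0.0378, adjusted p = 0.593). All 4 ko libraries were below the het mean for either miRNA. The adjusted limma, edgeR and DESeq2 p over the alternatives ran from 0.208 to 0.988 for miR-153-3p and from 0.223 to 0.988 for miR-101a-5p. The other strand of the miR-153 hairpin, miR-153-5p, had 171 ± 54.2 and 139 ± 61.2 CPM and a log2 difference of -0.36 (SE 0.39, adjusted p = 0.975). The neuronal markers miR-124-3p, miR-128-3p and miR-9-5p had log2 differences of -0.13, 0.33 and 0.41 (limma, adjusted p = 0.975, 0.87 and 0.796). The oligodendrocyte markers miR-338-3p and miR-219a-2-3p had -0.51 and 0.13 (limma, adjusted p = 0.754 and 0.975). The myeloid markers miR-142a-3p and miR-223-3p had -0.52 and -0.25 (limma, adjusted p = 0.696 and 0.975). The red-cell marker miR-451a had -0.86 and the endothelial marker miR-126a-3p 0.10 (limma, adjusted p = 0.593 and 0.975). Their part in the values of the members was not tested.

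**Figure D4:**
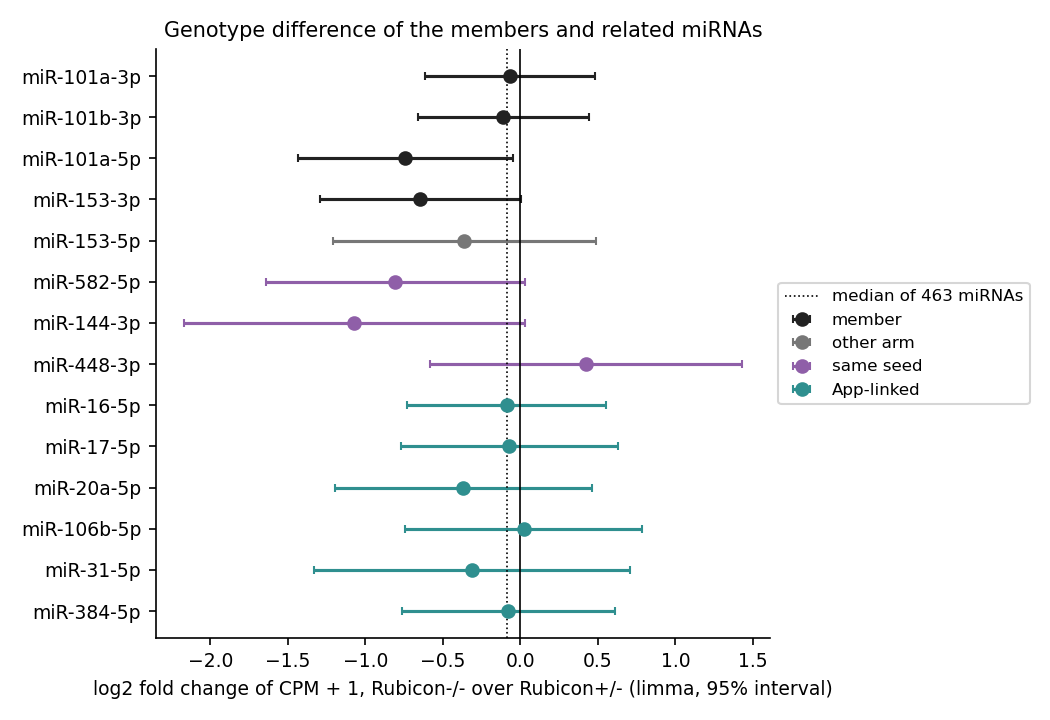
Log2 fold change of CPM + 1 (x axis, ko over het, limma estimate with its 95% interval) for the 4 members, miR-153-5p, 3 miRNAs that share a member's 6mer seed and 6 other App-linked miRNAs, with the median of all 463 miRNAs as a dotted line at -0.09. miR-101a-3p and miR-101b-3p lie near the median, and miR-101a-5p and miR-153-3p lie below it at -0.74 and -0.65, with no member called.

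The read sequences were also tested one by one. Of the 456 sequences of the members, 58 had a mean of at least 10 CPM and were tested: 25 of miR-101a-3p, 16 of miR-101b-3p, 3 of miR-101a-5p and 14 of miR-153-3p. limma called none of them, where 16 of 3299 tested read sequences were called (0.485%). At an unadjusted p under 0.05 stood 3 of the 58, all lower in ko (of all tested reads 5.3% passed, and 4.18% were lower in ko), and they were 2 reads of miR-153-3p and 1 of miR-101a-5p. This count rests on the libraries used: without ko 2 it was 10 of 58 (6 of them of miR-153-3p), where 7.95% of all tested reads passed. Without ko 4 it was 6 of 59 and without het 4 it was 5 of 58, where 5.57% and 5.41% of all tested reads passed. Without both deep libraries it was 7 of 59, where 8.05% of all tested reads passed. All of these were lower in ko and none was called. The lowest of them was a miR-153-3p read of 23 nt that begins 1 base downstream, with 49.2 CPM in het and 14.1 in ko and a log2 difference of -1.86 (SE 0.54, adjusted p = 0.418). The 14 tested reads of miR-153-3p all had a difference below 0, from -1.86 to -0.10 with a median of -0.64, whereas 16 of 25 reads of miR-101a-3p and 9 of 16 of miR-101b-3p did, with medians of -0.09 and -0.07. The median over all tested reads was -0.02. Reads of the same miRNA come from the same hairpin and library and are not independent.

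Summed over all small RNAs by 6mer seed, none of the 4 seeds was called, where limma called 3 of 990 seeds (0.303%) and 5.76% passed without adjustment. The log2 difference was -0.26 for the U-start seed ACAGUA, 0.08 for the G-start seed UACAGU, -0.64 for the miR-153-3p seed UGCAUA and -0.55 for the miR-101a-5p seed CAGUUA, with adjusted p = 0.982, 0.996, 0.843 and 0.849 by limma. Of them UGCAUA alone passed before adjustment (limma, unadjusted p = 0.045). The difference of ACAGUA was -0.11 without het 4 or without ko 1, -0.05 without both deep libraries and -0.48 without ko 4.

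The levels of either start overlapped between the genotypes. G-start reads of miR-101a-3p had 4193, 4019, 4079 and 3765 CPM in het and 3867, 4688, 3540 and 5893 CPM in ko, a narrow het range inside a wide ko range. U-start reads had 6512, 4946, 5628 and 9137 CPM in het and 3984, 5229, 4833 and 9335 CPM in ko. The p was 0.514 for each start of miR-101a-3p and between 0.4 and 0.514 for those of miR-101b-3p (exact two-sided permutation test over 70 splits, smallest possible p 0.0286). Of 12 measures taken within libraries (3 ratios between members and, for each 3p guide, the share at the reference start, the share with an unmatched 3′ end and the mean length), none passed the exact permutation test with adjustment over the 12. The smallest p was 0.114 (adjusted p = 0.6), reached by 2 of them. One was the log2 ratio of miR-101a-3p to miR-101a-5p, 6.33 ± 0.45 in het and 7.01 ± 0.47 in ko (SD, n = 4). The other was the share of miR-101b-3p at its reference start, 30.9% ± 6.15 and 36.8% ± 3.50, a difference of 5.87 points that was 2.90 points without het 4. The log2 ratio of miR-153-3p to both miR-101 guides was -1.14 ± 0.55 in het and -1.71 ± 0.54 in ko (p = 0.171 by the same exact test, adjusted p = 0.6). With 4 libraries a group, a measure at the smallest possible p has an adjusted p of 0.343 when it stands alone, and at least 7 of the 12 would have to reach that p for any to pass, so this test says little about whether the measures differed.

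The paralogs kept a near-constant ratio. miR-101a-3p was 4.19-fold as abundant as miR-101b-3p (geometric mean over 8 libraries, range 3.86 to 4.69), a mean log2 ratio of -2.07 ± 0.10 (SD) for miR-101b-3p over miR-101a-3p, in the same direction in 8 of 8 libraries (exact two-sided sign-flip permutation test, p = 0.00781). The ratio was -2.05 ± 0.09 in het and -2.09 ± 0.13 in ko, a difference that did not pass (exact permutation test, p = 0.543, adjusted p = 0.623 over the 12 measures).

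The log2 levels of the paralogs went together over the 8 libraries with Pearson r = 0.956 (exact permutation p = 0.000397, adjusted p = 0.00159 over 4 relations) and Spearman rho = 0.952 (exact permutation p = 0.00114, adjusted p = 0.00456). Without ko 4 and het 4, the libraries farthest from the median, r was 0.878, and after removing the mean of each genotype it was 0.961. Both values come from the same library and its total. The mean lengths of the paralogs were related too, with r = 0.754 (permutation p = 0.0312, adjusted p = 0.0442), rho = 0.81, 0.943 without het 3 and ko 1, and 0.894 within genotypes. For the share of G starts r was 0.807 but rho 0.333, and r was -0.61 without het 4 and ko 1, so this relation rests on those libraries. For the share of unmatched 3′ ends r was 0.674 (permutation p = 0.0634) and did not pass. These 4 relations were added after the levels had been seen.

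**Figure D5:**
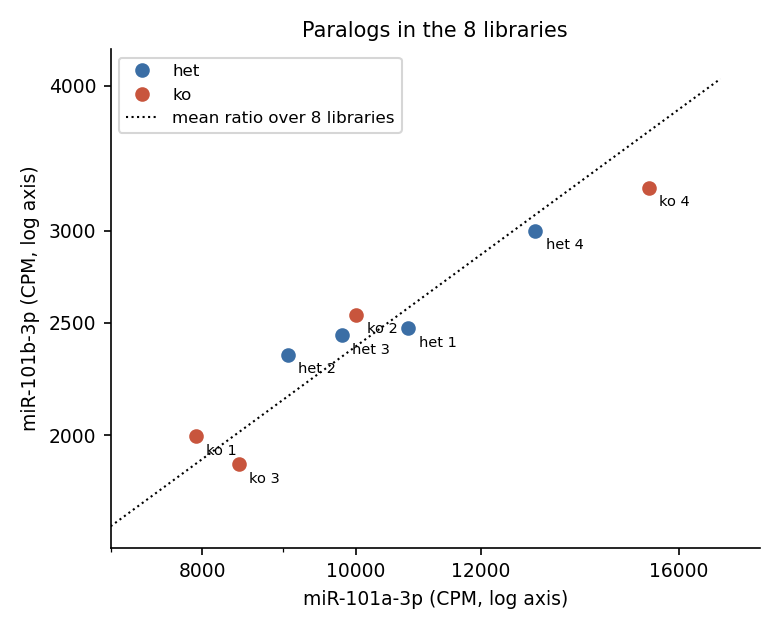
Level of miR-101b-3p (y axis, CPM, log scale) against miR-101a-3p (x axis, CPM, log scale) in the 8 libraries, with the mean ratio as a dotted line. The libraries of both genotypes lie along the line, from ko 1 and ko 3 at the low end to ko 4 at the high end, with ratios from 3.86 to 4.69.

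Among 277 other miRNAs that averaged 100 CPM or more, the level most like that of miR-101a-3p over the 8 libraries was miR-376a-3p (Pearson r of log2(CPM + 1) 0.97), followed by miR-101b-3p (0.956) and miR-142a-5p (0.851). For miR-101b-3p the order was miR-376a-3p (0.966), miR-101a-3p (0.956) and miR-142a-5p (0.844). miR-153-3p was most like miR-30e-5p (0.917), miR-142a-3p (0.916) and miR-3068-5p (0.898). It had r = 0.0913 with miR-101a-3p, at place 137 of the 277, and 0.299 with miR-101b-3p.

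Some miRNAs had a most abundant read with the same 6mer seed as the most abundant read of a member, and all of them were less abundant than that member. miR-582-5p, with the G-start seed, had 652 ± 296 CPM in het and 355 ± 121 in ko, a log2 difference of -0.81 (adjusted p = 0.613 by limma). miR-144-3p, a miRNA of red cells with the U-start seed, had 592 ± 429 and 283 ± 225 CPM, with -1.07 (limma, adjusted p = 0.613). Its means were 385 CPM in het without het 2 and 170.2 CPM in ko without ko 2. miR-448-3p, with the seed of miR-153-3p, had 37.9 ± 23.2 and 44.0 ± 9.37 CPM, with 0.42 (adjusted p = 0.975).

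Other miRNAs have been reported to act on App. Of 7 listed (miR-16-5p, miR-17-5p, miR-20a-5p, miR-106a-5p, miR-106b-5p, miR-31-5p and miR-384-5p), all were in the table and 6 were tested, miR-106a-5p being too low with a mean of 2.52 CPM. limma called 0 of the 6, and 0 passed without adjustment, with 5 estimates below 0 and 1 above and a median of -0.08 beside -0.09 over all 463 miRNAs. edgeR and DESeq2 called 0 as well. The most abundant, miR-16-5p, had 12540 ± 3090 CPM in het and 12036 ± 3906 in ko, close in level to miR-101a-3p. miR-31-5p had 734 ± 119 CPM in het and 780 ± 726 CPM in ko, where ko 3 had 1842 CPM and the mean of the other 3 libraries was 426 CPM. Its log2 difference was -0.31 by limma (adjusted p = 0.975) and -0.86 without ko 3 (adjusted p = 0.419).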

How the data were processed

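Argonaute-bound small RNA was sequenced from the brains of 8 mice, 1 library each. The authors trimmed the reads (Trim Galore per the labels), joined them to miRNA, seed and viability annotation with their SPOROS pipeline, and deposited a table of read sequences in CPM; genome build and tool versions are not given in the sources used here. The deposited viability score of a seed is a mean over 3 mouse cell lines. At least 99.9% of values in each column were whole reads within 0.1 read, so reads and depth could be recovered, and the listed sequences summed to 98.4% to 99.8% of 1000000. CPM was summed by miRNA name and by 6mer seed.

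Genotypes were compared with limma 3.58.1 (R 4.3.3; trend and robust options) on log2(CPM + 1) over features with a mean of at least 10 CPM and called at an adjusted p under 0.05. Measures within libraries were compared with exact permutation or sign-flip tests (Python 3.11.15, numpy 2.4.6). edgeR 4.0.16 and DESeq2 1.42.0 on the recovered reads were alternatives, besides pseudocounts of 0.1 and 10, minimum means of 1 and 100 CPM, median centring, a replicate block, reads of 20 to 23 nt, and libraries left out. The fits were tested on simulated data. Reads were aligned to RefSeq hairpins and called tailed where the 3′ end left the hairpin. App 3′ UTRs came from GENCODE M21.

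The text names the 4 members, the other arms and paralogs of their hairpins, miRNAs whose most abundant read shares its 6mer seed with that of a member, 7 other App-linked miRNAs, the 3 most alike miRNAs of each 3p guide, and abundant reads. Members and lists were chosen with earlier results of these data known. No columns of per-sample values were left out.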

Additional observations from a re-analysis of the deposited data

Results flagged for a closer look

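Within groups of 4 libraries, 62 sets of values (levels, the 12 measures, and levels and tail shares by start) were searched for a library whose gap to its nearest neighbour passed the 95% critical value of Dixon's test, which chance passes in about 1 of 20 sets, or 3.1 of 62. Among them 5 sets passed. The U-start level of miR-101b-3p was 2342 CPM in het 4, where the next het library had 1616 CPM. The log2 ratio of miR-153-3p to both miR-101 guides was -1.96 in het 4, next to -0.95. The mean length of miR-101a-3p was 21.1 nt in het 3 (21.06, next to 21.20 nt), and that of miR-153-3p was 22.3 nt in het 1, next to 22.2 nt. The tail share of the G start of miR-101b-3p was 13.9% in het 2, next to 17.3%. Of the 5, 2 came from het 4, the library with the lowest miR-153-3p level and the highest miR-101a-3p level of its genotype. Without het 4 the log2 difference of miR-153-3p was -0.83, without ko 3 it was -0.43, and in neither case was a member called.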

How the results depend on the processing

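In every alternative run, edgeR, DESeq2 and each left-out library included, 0 of the 4 members, 0 of their seeds and 0 of the other App-linked miRNAs were called (smallest adjusted p of miR-153-3p 0.208, of miR-101a-5p 0.223), and both kept their sign. The 12 measures could hardly pass in any setting. They could not pass at all without both deep libraries, where the smallest possible p is 0.0667 (exact permutation). The same holds with a replicate block, where it is 0.125 (exact sign-flip over 4 pairs). The outcome of the measures therefore says nothing about stability. miR-101a-3p turned to 0.15 with median centring, 0.12 with edgeR, 0.13 with DESeq2 and 0.11 without the 2 deepest libraries, and miR-101b-3p to 0.11, 0.068 and 0.080 with centring, edgeR and DESeq2. The same 3 settings turned miR-16-5p to 0.13, 0.053 and 0.062, miR-17-5p to 0.15, 0.015 and 0.037, and miR-384-5p to 0.14, 0.018 and 0.023. edgeR and DESeq2 turned miR-31-5p to 0.15 and 0.18. Without the 2 deepest libraries miR-17-5p was 0.24, miR-20a-5p 0.18 and miR-31-5p 0.10, the difference in mean length of miR-101a-3p -0.0313 nt and in unmatched 3′ ends of miR-101b-3p -0.090 points. The cause was not tested.

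With 1 library left out, log2 differences ran from -0.27 to 0.045 for miR-101a-3p, -0.27 to -0.00197 for miR-101b-3p, -0.86 (without ko 2) to -0.43 (without ko 3) for miR-153-3p, -0.93 to -0.57 for miR-101a-5p, -0.28 to 0.16 for miR-16-5p, -0.27 to 0.14 for miR-17-5p, -0.26 to 0.21 for miR-106b-5p, -0.86 to 0.014 for miR-31-5p, -0.28 to 0.13 for miR-384-5p, -0.065 to 0.18 for the seed UACAGU, -0.48 to -0.11 for ACAGUA, -0.84 to -0.43 for UGCAUA and -0.66 to -0.38 for CAGUUA. The miR-101b-3p to miR-101a-3p log2 ratio differed between genotypes by -0.077 to 0.0068, unmatched 3′ ends of miR-153-3p by -0.473 to 0.0265 points and the mean length of miR-101b-3p by -0.0853 to 0.0105 nt. The share of miR-101b-3p at its reference start differed by 2.90 (without het 4) to 7.54 points, the log2 ratio of miR-101a-3p to miR-101a-5p by 0.50 to 0.87, and the tail share of the U start of miR-101a-3p by 3.48 (without ko 1) to 8.36 points. The paralog ratio stayed between -2.08 and -2.04. The lower tail share of the G start of miR-101b-3p had p = 0.0781 (exact permutation) without het 1 or without any 1 ko library and 0.156 without both deep libraries, but 0.0156 without het 4 (adjusted p = 0.0234) and 0.0312 with reads averaging 1 CPM or more (adjusted p = 0.0469). With reads of 20 to 23 nt the G-start reads of miR-101a-3p were longer than the U-start reads by 0.114 nt (exact permutation p = 0.0391, adjusted p = 0.0562).

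The genotypes share replicate numbers in the labels. After the mean of each genotype was removed from each of 463 miRNAs, same-numbered libraries correlated at 0.0377, 0.291, -0.182 and 0.252. By this measure het 2 and ko 2 were each other's best match. The best match of ko 4 was het 4, but that of het 4 was ko 3, and replicates 1 and 3 did not match. These values do not settle whether the numbers stand for pairs. With a replicate block, 10 miRNAs in place of 6 were called and 26 reads in place of 16, among them 1 member read, the miR-153-3p read of 23 nt that begins 1 base downstream (log2 difference -1.86, adjusted p = 0.043 by limma). DESeq2 called 9 miRNAs and edgeR 4. Depth limits the shallow libraries: miR-101a-5p rested on 53 reads in het 1, where 3 reads are 5.79 CPM.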
